A study of Mus musculus with 8 samples.

Results

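The peaks described here lie near the distal ends of mouse chromosomes 1 to 19. They were chosen by position alone: a peak was a member when its midpoint lay within 5 Mb of the largest peak end found on its chromosome in any of 5 lists of chromatin immunoprecipitation sequencing (ChIP-seq) peaks. Of the 38359 peaks in the 5 lists, 2185 were members, and all of them were described without a filter. The H3K9me3 lists gave 219 members of 3176 peaks in KAP1 knockout (KO) cells (6.90%) and 749 of 14596 in wild-type (WT) cells (5.13%). The H4K20me3 lists gave 538 of 8920 in KO cells (6.03%) and 661 of 11295 in WT cells (5.85%). The KAP1 list of WT cells gave 18 of 372 (4.84%). The rest of chromosomes 1 to 19 held 35000 peaks. The end of a chromosome was thus taken from the lists and not from a genome, so each window closes with a peak.

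Mouse autosomes have their centromere at one end, so the high-numbered end of each sequence is the one that carries the telomere of the long arm. Telomeres are repeats that cap chromosomes, and in mouse cells telomeric and neighbouring chromatin is known to carry the heterochromatin marks H3K9me3, written by the SUV39H enzymes, and H4K20me3, written by the SUV4-20H enzymes that follow HP1 bound to H3K9me3. KAP1 (TRIM28) is a corepressor without DNA binding of its own. It is brought to repeats and to zinc finger gene clusters by KRAB zinc finger proteins and recruits the methyltransferase SETDB1, which also writes H3K9me3. Assembled sequence of this kind ends before the telomere repeats themselves.

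All samples were mouse embryonic fibroblasts (MEF), connective tissue cells from embryos. H3K9me3 and H4K20me3 were profiled in KAP1 KO cells and in WT cells, KAP1 in WT cells alone, with 1 library for each, and 3 input libraries were not analysed here. The making of the knockout, the number of embryos or clones behind each culture and their age were not stated in the sample descriptions, and no library used here measured KAP1 in KO cells or any marker of fibroblasts. With 1 library per group no difference between genotypes has a replicate check and no test was made. Intervals in brackets are exact 95% intervals for counting error over peaks alone, and because neighbouring peaks are not independent, they are too narrow as errors of a chromosome region. Read depth was not known for any list, and where a peak is missing none was called.

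Peaks of every list were denser in the distal 5 Mb than in the rest of the same chromosomes. For H3K9me3 in KO cells, density was 2.31 peaks per Mb in the distal windows and 1.14 in the rest, a ratio of 2.02 (1.75 to 2.32). For H3K9me3 in WT cells it was 7.88 and 5.79 peaks per Mb, a ratio of 1.36 (1.26 to 1.46). H4K20me3 had 5.66 distal peaks per Mb against 3.51 elsewhere in KO cells, a ratio of 1.61 (1.48 to 1.76). In WT cells H4K20me3 had 6.96 against 4.50, a ratio of 1.54 (1.43 to 1.67). The 18 KAP1 peaks amounted to 0.189 per Mb, and the rest of the chromosomes held 0.148 per Mb, a ratio of 1.28 whose interval (0.750 to 2.05) includes 1.

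The higher density was not shared by all chromosomes. Distal density exceeded that of the rest on 11 of 19 chromosomes for H3K9me3 in KO cells and on 13 for H3K9me3 in WT cells. For H4K20me3 it did so on 11 chromosomes in KO cells and 12 in WT cells. The H3K9me3 ratio in KO cells came down to 1.19 (0.983 to 1.42) without chromosome 2. The direction also depended on the stretch used for comparison. Against the 5 Mb just inside the distal windows, the H3K9me3 ratios were 0.745 (0.622 to 0.890) in KO cells and 0.652 (0.594 to 0.715) in WT cells. The size of these reversals in the summed counts rested on single chromosomes. Of the inner stretch's peaks, 118 of 294 in KO cells lay on chromosome 10 and 438 of 1149 in WT cells on chromosome 4. Without chromosome 10 the KO ratio was 1.11 (0.899 to 1.37), and without chromosome 4 the WT ratio was 1.02 (0.914 to 1.13). The distal windows were denser than the inner stretch on 13 chromosomes and less dense on 5 in KO cells, and denser on 7 and less dense on 12 in WT cells. In WT cells the lower distal density was thus not limited to chromosome 4. The H4K20me3 ratios against it stayed above 1, at 1.17 in KO cells and 1.13 in WT cells.

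**Figure D1:**
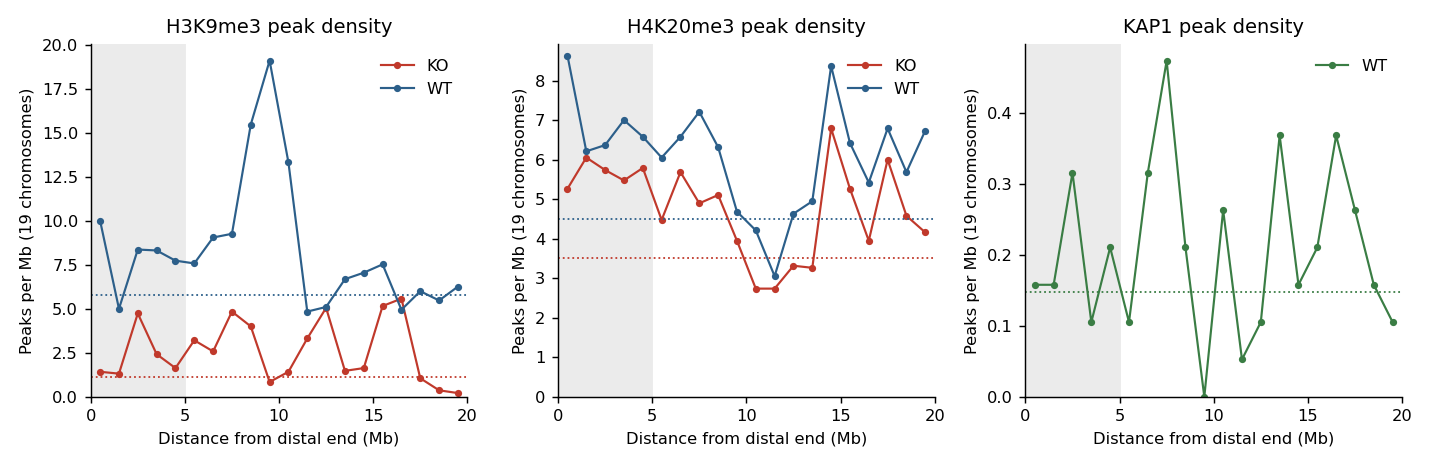
Peaks per Mb (vertical axes) summed over chromosomes 1 to 19 in bins of 1 Mb by distance from the distal end (horizontal axes, Mb), for H3K9me3, H4K20me3 and KAP1 in KO cells (red) and WT cells (blue, green for KAP1). Grey marks the distal 5 Mb and dotted lines the density of the rest of the chromosomes; WT H3K9me3 stands at 10.0 peaks per Mb in the outermost bin and reaches 19.1 at 9 to 10 Mb.

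WT H3K9me3 peaks were denser in the last 100 kb, counted from the ends that the rule set, than in the remainder of the windows. The last 100 kb of the 19 chromosomes together held 3 H3K9me3 peaks in KO cells and 57 in WT cells. In WT cells this was 30.0 peaks per Mb, against 7.43 per Mb from 100 kb to 5 Mb, a ratio of 4.04 (3.02 to 5.29). In KO cells the same densities were 1.58 and 2.32 peaks per Mb, a ratio of 0.681 (0.139 to 2.02). Part of the WT excess comes from the rule, since 11 of the 57 peaks were the ones that set the end of their chromosome. The other 46 amounted to 24.2 per Mb, a value that is not free of the rule either. Of distal WT H3K9me3 peaks, 44.9% had a neighbour within 5 kb, so a window that ends on such a peak also takes in neighbours. The comparison with KO cells carries this too, since KO H3K9me3 peaks set only 2 ends. The 57 peaks were spread over 16 of the 19 chromosomes, with at most 9 on 1 chromosome, number 17.

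For H4K20me3 in WT cells the last 100 kb held more peaks than the bin from 100 to 200 kb. It held about as many as the bins from 200 to 400 kb. There were 11 H4K20me3 peaks in the last 100 kb in KO cells and 29 in WT cells, 9 of these 29 on chromosome 16, and 1 KO and 4 WT peaks set an end. From 100 to 200 kb there were 10 in KO cells and 10 in WT cells. From 200 to 300 kb there were 12 in KO cells and 28 in WT cells, and from 300 to 400 kb 14 and 25. A run of 20 WT H4K20me3 peaks on chromosome 6, starting 204 kb from the end, lay within the bins from 200 to 400 kb. For H3K9me3 in WT cells the bins from 100 to 400 kb held 25, 26 and 27 peaks, against the 57 of the last 100 kb. For H4K20me3 the ratio to the density from 100 kb to 5 Mb was 1.02 (0.507 to 1.85) in KO cells and 2.25 (1.49 to 3.26) in WT cells. These intervals overlap, and the difference was not tested. Of the 57 WT H3K9me3 peaks in the last 100 kb, 1 was kept in KO cells, meaning that it shared 1 bp or more with a KO peak of the same mark (1.75%, 0.0444 to 9.39%), beside 3.10% over the whole list and 27 of 692 from 100 kb to 5 Mb (3.90%), both within that interval. Of the 29 WT H4K20me3 peaks there, 10 were kept (34.5%, 17.9 to 54.3%), beside 65.6% over the whole list, and from 100 kb to 5 Mb 422 of 632 were (66.8%, 62.9 to 70.4%). In the last 100 kb 11 of the 29 H4K20me3 peaks lay on a WT H3K9me3 peak (37.9%, 20.7 to 57.7%), and in the remainder of the windows 76 of 632 did (12.0%, 9.59 to 14.8%). The stretch of 100 kb was chosen after the values had been seen.

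**Figure D2:**
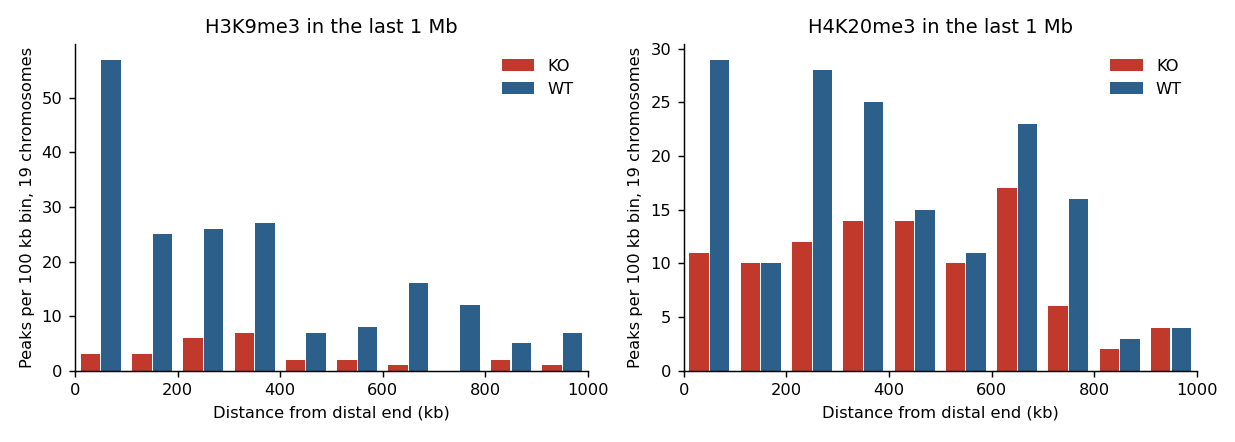
Number of H3K9me3 (left) and H4K20me3 (right) peaks (vertical axes) in bins of 100 kb over the last 1 Mb of chromosomes 1 to 19 (horizontal axes, kb from the distal end), in KO cells (red) and WT cells (blue). The outermost bin holds 3 KO and 57 WT H3K9me3 peaks and 11 KO and 29 WT H4K20me3 peaks.

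Distances of the outermost peaks are in part fixed by the rule, because a list that sets an end has its outermost peak there. The end was set by a KO H3K9me3 peak on 2 chromosomes and by a WT H3K9me3 peak on 11. It was set by a KO H4K20me3 peak on 1 chromosome, by a WT H4K20me3 peak on 4 and by a KAP1 peak on 1. The distances therefore allow no comparison of the lists. Chromosome 7 was the only one without a KO H3K9me3 peak in its distal 5 Mb, and its outermost one lay 11431 kb from the end.

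Some of the strongest distal WT H3K9me3 peaks were end peaks without a KO peak. The highest-scoring distal WT H3K9me3 peak that was lost, that is without a KO peak at its place, lay on chromosome 17 from 95214266 to 95222739 (mm9 build, as all positions here). It was 8474 bp long, 52.8 kb from the end, with a score of 1531, and it overlapped a WT H4K20me3 peak of 5275 bp that was lost as well. The score is the authors' own value per peak and is used here only to rank peaks within a list. On chromosome 19 a lost H3K9me3 peak of 4332 bp (61257261 to 61261592, score 1174) lay 43.3 kb from the end. On chromosome 16 a lost peak of 3725 bp (98284167 to 98287891, score 1134) lay 17.7 kb from the end. Both overlapped WT H4K20me3 peaks and no KO peak of either mark. The other 2 of the 5 highest-scoring lost peaks lay on chromosome 11, farther in. The one from 120617057 to 120621014 (score 1195) was 1212 kb from the end and carried no H4K20me3. The one from 118168692 to 118171363 (score 943) was 3661 kb from the end, on the highest-scoring lost distal H4K20me3 peak (118168961 to 118173393, score 1304).

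Fewer distal H3K9me3 peaks were called in KO cells, 219 against 749 in WT cells, a KO to WT ratio of 0.292 (0.250 to 0.340). In the rest of the chromosomes the numbers were 2643 in KO cells and 13436 in WT cells, a ratio of 0.197 (0.189 to 0.205). The distal ratio was 1.49 times that of the rest (1.27 to 1.74). In the summed numbers this difference rested on chromosome 2. Without that chromosome the distal ratio was 0.179 and that of the rest 0.200. Taken singly, 12 chromosomes, chromosome 2 among them, had a distal ratio above that of their rest, and 7 had one below it. Covered distal length was 119 kb in KO cells and 480 kb in WT cells, 0.248 times as much, and the mean peak was 545 bp long in KO cells and 641 bp in WT cells. In the rest the covered ratio was 0.223, with mean lengths of 680 bp in KO cells and 599 bp in WT cells.

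For H4K20me3 the distal and other parts of the chromosomes gave like ratios. There were 538 distal peaks in KO cells and 661 in WT cells, a ratio of 0.814 (0.725 to 0.913). The rest held 8135 in KO cells and 10443 in WT cells, a ratio of 0.779 (0.757 to 0.802). The distal ratio was 1.04 times that of the rest, and the interval of this quotient (0.927 to 1.18) includes 1.

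Single chromosome ends differed widely. Over the 19 ends, distal H3K9me3 numbers ranged from 0 to 95 in KO cells, with a median of 5, and from 5 to 108 in WT cells, with a median of 40. KO cells had fewer distal H3K9me3 peaks on 18 chromosomes and more on chromosome 2 alone. The 3 ends with most H3K9me3 peaks were those of chromosomes 2 (95), 4 (26) and 10 (24) in KO cells. In WT cells they were those of chromosomes 6 (108), 8 (69) and 11 (65). Distal H4K20me3 numbers ranged from 2 to 80 in KO cells, with a median of 23, and from 1 to 87 in WT cells, with a median of 32. The ends with most H4K20me3 peaks were those of chromosomes 15 (80), 10 (78) and 11 (64) in KO cells and of chromosomes 11 (87), 15 (86) and 6 (71) in WT cells. KO cells had fewer distal H4K20me3 peaks on 14 chromosomes, more on 4 and the same number on 1. In bins of 1 Mb counted from the end, the 3 fullest for WT H3K9me3 all lay on chromosome 6. They held 2 KO and 32 WT peaks at 0 to 1 Mb, 1 KO and 28 WT peaks at 3 to 4 Mb, and 0 KO and 24 WT peaks at 2 to 3 Mb. For H4K20me3 the fullest bin was 1 to 2 Mb from the end of chromosome 11, with 32 KO and 35 WT peaks, 28 of the 35 being kept. The outermost 1 Mb of chromosome 6 held 9 KO and 30 WT H4K20me3 peaks, with 7 of the 30 kept. That of chromosome 4 held 20 KO and 27 WT H4K20me3 peaks, with 20 of the 27 kept. Over the whole WT H4K20me3 list 65.6% were kept.

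**Figure D3:**
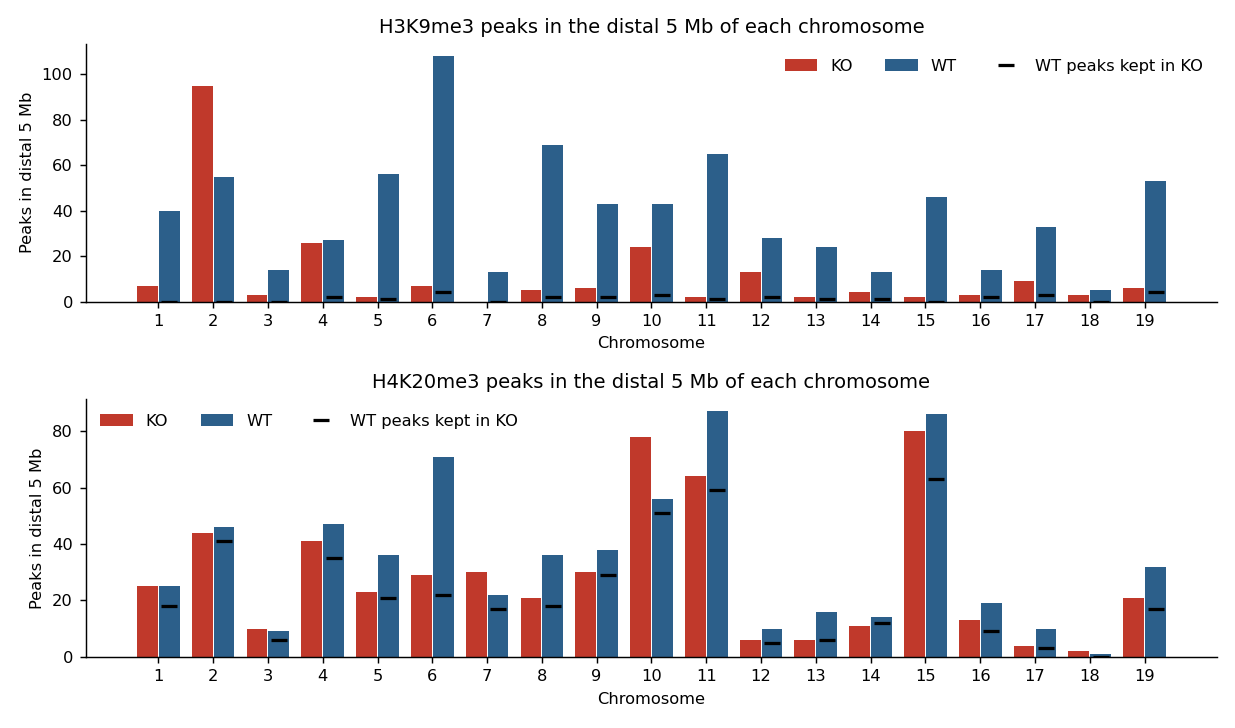
Number of H3K9me3 (top) and H4K20me3 (bottom) peaks in the distal 5 Mb (vertical axes) of each chromosome (horizontal axes), in KO cells (red) and WT cells (blue), with black dashes for the WT peaks kept in KO. Chromosome 2 has 95 KO and 55 WT H3K9me3 peaks, while all other ends have fewer H3K9me3 peaks in KO than in WT.

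On chromosome 2, all 95 distal KO H3K9me3 peaks lay between 177876683 and 179476735, from 2.21 to 3.81 Mb from the end, and none met a WT H3K9me3 peak. Their median length was 423 bp and their median score 60.2, close to the 446 bp and 62.2 of KO H3K9me3 peaks in the rest. Their highest score was 167. A score of 100 was reached by 10 of the 95, beside 15.9% of KO H3K9me3 peaks in the rest. The 95 peaks made up 50% of all 190 distal KO H3K9me3 peaks without a WT peak, and 38.5% of the KO H3K9me3 peaks of chromosome 2. The same 1600053 bp held 13 H3K9me3 peaks in WT cells. They held no H4K20me3 peak in KO cells, 1 in WT cells and no KAP1 peak. H4K20me3 peaks of both genotypes lined the stretch on either side: the outer 2 Mb of the chromosome held 31 in KO cells and 31 in WT cells, and 4 to 5 Mb from the end there were 10 and 11. The outer 2 Mb held no H3K9me3 peak in KO cells and 23 in WT cells. The densest runs of KO peaks, with gaps of at most 20 kb, held 30 peaks from 178985695 to 179227386 and 19 peaks from 178830835 to 178963210, where WT cells had 10 and 1 H3K9me3 peaks.

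Distal KO H3K9me3 peaks without a WT peak lay far from H4K20me3 on other chromosomes too. Their median distance to the nearest WT H4K20me3 peak was 375 kb (314 to 453 kb) over all 190 peaks and 236 kb (164 to 289 kb) over the 95 outside chromosome 2. For distal WT H3K9me3 peaks it was 44.6 kb (37.9 to 49.4 kb). The same order held in the rest of the chromosomes, with 351 kb for KO peaks without a WT peak and 60.8 kb for WT peaks. Of the 190 distal KO peaks, 9 lay within 50 kb of a WT H4K20me3 peak (4.74%), and of the 749 distal WT peaks 404 did (53.9%). Against the KO H4K20me3 list the medians were 403 kb for these KO peaks and 65.8 kb for WT peaks.

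The end of chromosome 10 differed for both marks. From 2 to 5 Mb from its end there were 23 H3K9me3 peaks in KO cells and 22 in WT cells. Of those 22, 3 were kept, beside 3.10% over the whole list. The KO peaks there were long, with a median of 1129 bp against 509 bp in WT cells. H4K20me3 peaks in the same stretch numbered 65 in KO cells and 46 in WT cells, with median lengths of 1497 and 839.5 bp. Of these, 16 KO peaks and 0 WT peaks were longer than 2 kb. Almost all WT H4K20me3 peaks of this stretch were kept, 44 of 46, beside 65.6% over the whole list. The long peaks were not limited to the distal window. Over all of chromosome 10 outside that window, H3K9me3 medians were 1079.5 bp in KO cells and 450 bp in WT cells. The H4K20me3 medians there were 857 bp in KO cells and 802 bp in WT cells. In the next 5 Mb of chromosome 10, H3K9me3 peaks numbered 118 in KO cells and 59 in WT cells, with medians of 1105 and 468 bp, and H4K20me3 medians were 1494 bp in KO cells and 885.5 bp in WT cells. The highest-scoring distal KO H3K9me3 peaks without a WT peak lay here, from 126180562 to 126182881 (score 384, 2320 bp) and from 126183052 to 126184045 (score 233). The first overlapped a KO H4K20me3 peak of score 63.2. The highest-scoring distal KO H4K20me3 peak without a WT peak lay here as well, from 127528963 to 127530489 (score 344).

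The end of chromosome 6 had the most distal WT H3K9me3 peaks. It held 7 H3K9me3 peaks in KO cells and 108 in WT cells, of which 4 were kept (3.70%, beside 3.74% over all distal ends and 3.10% over the whole list). H4K20me3 peaks numbered 29 in KO cells and 71 in WT cells, of which 22 were kept (31.0%, beside 65.4% over all distal ends and 65.6% over the whole list). The last 1 Mb alone held 2 H3K9me3 peaks in KO cells and 32 in WT cells, and 9 and 30 H4K20me3 peaks. Most of these WT peaks formed 1 run from 149191233 to 149317258, with 24 H3K9me3 peaks, 20 H4K20me3 peaks and 1 KAP1 peak in 126026 bp. That run held 2 H3K9me3 and 3 H4K20me3 peaks in KO cells. Its strongest member was kept. The H3K9me3 peak from 149273755 to 149277795 was the highest-scoring distal one of WT cells, with a score of 1532. The KO peak was 706 bp long and the WT peak 4041 bp. The longer of the KO H4K20me3 peaks there was 1833 bp long, and the WT H4K20me3 peak 5076 bp.

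**Figure D4:**
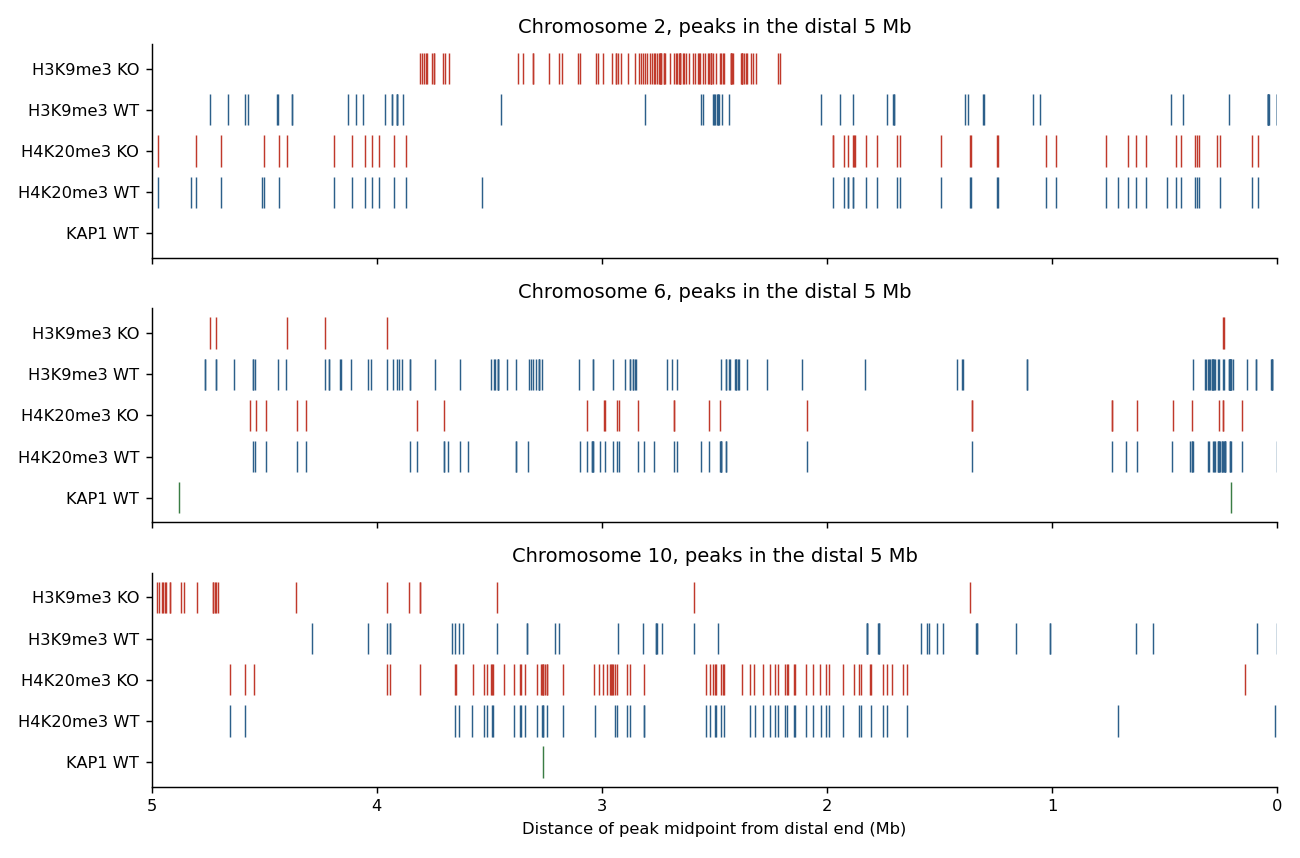
Peaks in the distal 5 Mb of chromosomes 2, 6 and 10, each drawn as 1 vertical line at the distance of its midpoint from the distal end (horizontal axis, Mb, the end on the right), with 1 row per list. On chromosome 2 the 95 KO H3K9me3 peaks lie between 3.81 and 2.21 Mb, where 1 WT and 0 KO H4K20me3 peaks were called, and on chromosome 6 a dense run of WT peaks of both marks lies near the end.

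Distal WT H3K9me3 peaks were almost all lost in KO cells, as were those of the rest. Of 749, 721 were lost, 96.3%, beside 96.9% over the whole WT list. The 28 kept peaks were 3.74% (2.50 to 5.36%), the rest of the chromosomes kept 315 of 13436 (2.34%, 2.10 to 2.61%), and the whole list kept 3.10%. The intervals of the distal and other parts overlap narrowly, and the distal share lies above the interval of the rest. The difference was not tested. Kept distal peaks were found on 13 of 19 chromosomes. Their median length was 542 bp (475 to 708 bp), against 488 bp (465 to 507 bp) for lost ones, and their median score was 95.9, against 78.5. Among the 10% of WT peaks with the highest scores, 6 of 96 were kept in the distal windows and 95 of 1323 elsewhere (6.25 and 7.18%). After the chromosome 6 peak, the kept peak with the highest score (588) spanned 119174062 to 119176426 of chromosome 9. A score of 471 belonged to the kept peak at 144801788 to 144802729 of chromosome 6. Those at 56921998 to 56922988 of chromosome 19 and at 120793660 to 120794582 of chromosome 12 scored 404 and 334. The one on chromosome 9 also carried H4K20me3 in both genotypes, and the other 3 carried none.

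Of the 219 distal KO H3K9me3 peaks, 190 lay where no WT peak was called (86.8%, 81.5 to 90.9%), beside 86.4% over the whole KO list and 88.8% (2348 of 2643) in the rest of the chromosomes. Without chromosome 2 the distal share was 76.6%. The 190 peaks had a median score of 59.6 and a median length of 424.5 bp. The 29 that met a WT peak had a median score of 89.9 and a median length of 598 bp.

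Distal WT H4K20me3 peaks were kept as often as others. The lost peaks were 229 of 661 (34.6%), beside 34.4% over the whole list. The 432 kept peaks were 65.4% (61.6 to 69.0%), beside 65.6% over the whole list and 6847 of 10443 in the rest (65.6%, 64.6 to 66.5%). Kept peaks were longer and stronger than lost ones, with median lengths of 863 and 581 bp and median scores of 239 and 77.4. The share ranged from 0 of 1 on chromosome 18 and 3 of 10 on chromosome 17 to 51 of 56 on chromosome 10 (91.1%). Of the distal KO H4K20me3 peaks, 99 of 538 had no WT peak (18.4%, 15.2 to 21.9%), beside 16.8% over the whole list and 1285 of 8135 in the rest (15.8%). Chromosome 10 held 28 of these 99 and chromosome 15 held 16. The strongest kept distal H4K20me3 peaks lay on chromosome 8 (129114854 to 129117916), with a KO length of 1979 bp and a WT length of 3063 bp, and on chromosome 10 (127472387 to 127473959), with a KO length of 2779 bp and a WT length of 1573 bp. Neither overlapped H3K9me3 in either genotype.

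Where distal WT H4K20me3 peaks lay on WT H3K9me3 peaks, few were kept. Of 87 such peaks 6 were kept (6.90%, 2.57 to 14.4%), beside 7.52% over the whole list and 83 of 1103 in the rest (7.52%). This share was 19.4% when peaks within 5 kb were merged, and in the next 5 Mb 18 of 104 were kept (17.3%, 10.6 to 26.0%). Of the 574 distal H4K20me3 peaks away from H3K9me3, 426 were kept (74.2%, 70.4 to 77.7%), beside 72.5% over the whole list and 72.4% in the rest. Seen from the other mark, 4 of 81 distal WT H3K9me3 peaks with H4K20me3 were kept (4.94%, 1.36 to 12.2%), beside 6.23% over the whole list. Of the 668 without H4K20me3, 24 were kept (3.59%, 2.32 to 5.30%), beside 2.80% over the whole list and 2.00% (1.76 to 2.26%) in the rest.

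Both marks shared few places. In KO cells 8 of 219 distal H3K9me3 peaks overlapped a KO H4K20me3 peak (3.65%, 1.59 to 7.07%), beside 3.24% over the whole list and 2.72% in the rest. In WT cells 81 of 749 overlapped a WT H4K20me3 peak (10.8%, 8.68 to 13.3%), beside 8.69% over the whole list and 8.77% (8.30 to 9.27%) in the rest. From the side of H4K20me3, 7 of 538 distal KO peaks (1.30%) and 87 of 661 distal WT peaks (13.2%, 10.7 to 16.0%) overlapped H3K9me3 peaks called in that genotype. Over the whole lists it was 1.15% in KO cells and 10.6% in WT cells. Chromosome 6 contributed 24 of the 81 distal WT H3K9me3 peaks with H4K20me3.

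**Figure D5:**
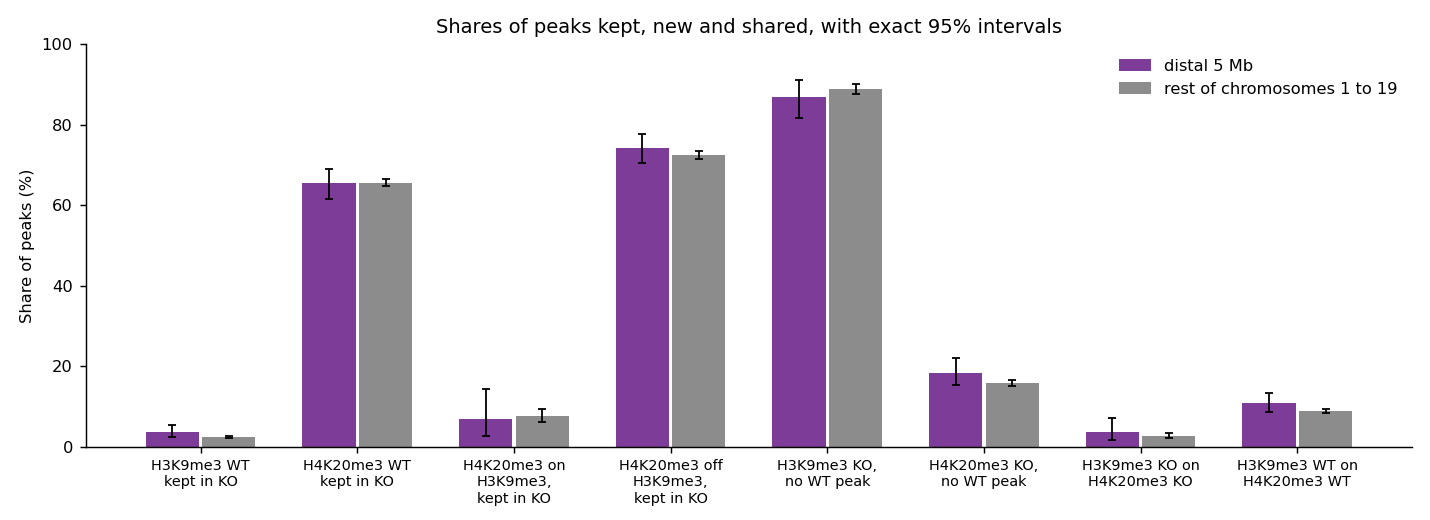
Share of peaks (vertical axis, percent) that were kept in KO, had no WT peak or overlapped the other mark, in the distal 5 Mb (purple) and in the rest of chromosomes 1 to 19 (grey). Error bars are exact 95% intervals for counting error over peaks; distal WT H4K20me3 peaks were kept in 6.90% of cases on WT H3K9me3 and in 74.2% away from it.

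The median length of H3K9me3 peaks in KO cells was 437 bp (417 to 452 bp) in the distal windows and 446 bp in the rest. In WT cells it was 489 bp (468 to 512 bp) and 457 bp, and without chromosome 6 the distal median exceeded that of the rest by 5 bp. For H4K20me3 in KO cells it was 880.5 bp (825 to 928 bp) and 795 bp, a difference of 85.5 bp that was 19 bp without chromosome 10. For H4K20me3 in WT cells it was 796 bp (757 to 826 bp) and 767 bp. Against the next 5 Mb the distal H3K9me3 medians were lower, with differences of -196.5 bp in KO cells and -81.0 bp in WT cells. Without chromosome 10 the KO difference was -28 bp, and without chromosome 4 the WT difference was 14 bp. Among H3K9me3 peaks of KO cells with scores of at least 100, the distal median minus that of the rest was -330.0 bp (-371 to -163 bp). Only 30 distal peaks and 419 of the rest had such scores, and 10 of the 30 lay in the chromosome 2 stretch. Distal KAP1 peaks had a median of 504 bp, and those of the rest 493 bp. H3K9me3 peaks over 2 kb were 3 of 219 in the distal windows and 108 of 2643 in the rest in KO cells (1.37 and 4.09%). In WT cells they were 19 of 749 and 229 of 13436 (2.54 and 1.70%). Neighbouring WT H3K9me3 peaks were within 5 kb of each other for 44.9% of distal peaks and 50.8% of others. In KO cells these shares were 34.2% and 31.9%.

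The 18 distal KAP1 peaks had a median score of 90.5, against 96.6 in the rest, and 5 of them lay on WT H3K9me3. Their scores ran from 50.4 to 776, and they were spread over 10 chromosomes, with 4 on chromosome 15 and 3 on chromosome 11. The highest-scoring lay on chromosome 14 (120787997 to 120788719, score 776) on a weak WT H3K9me3 peak of score 52.1. It was followed by 2 on chromosome 15, from 99414190 to 99414840 (score 269), on a WT H3K9me3 peak of score 236, and from 99701130 to 99701757 (score 250), on no peak of either mark. The next lay on chromosome 7 (149864444 to 149864965, score 225) and chromosome 11 (120582553 to 120583210, score 190), neither of them on a peak of either mark. The share on WT H3K9me3, 5 of 18 (27.8%, 9.69 to 53.5%), stood beside 44.4% over the whole list and 45.2% in the rest, and the distal interval includes both. On WT H4K20me3 lay 4 of 18 (22.2%), beside 16.7% over the whole list. At 2 of the 18 positions a KO H3K9me3 peak was called and at 2 others a KO H4K20me3 peak, beside 4.30% over the whole list for each mark.

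The remaining distal KAP1 peaks with a mark were found in several settings. Within the chromosome 6 run, the peak from 149310790 to 149311499 (score 148) lay on both WT marks and on no KO peak. On chromosome 4, the peak from 154492310 to 154492795 (score 98.7) lay on WT H3K9me3 alone. On chromosome 15, the peak from 100883635 to 100884211 (score 136) lay on a KO H3K9me3 peak of score 61.7 and on no WT peak of either mark. The peaks on chromosome 10 (126728225 to 126728647, score 73.8) and chromosome 13 (117813054 to 117813477, score 52.2) lay on H4K20me3 in both genotypes and on no H3K9me3. Near the end of chromosome 13, the peak from 120277026 to 120277955 (score 50.4) lay 0.724 kb from the end. It met H3K9me3 peaks of both genotypes, 1189 bp long in KO cells and 1168 bp in WT cells, and a WT H4K20me3 peak.

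The peaks nearest the 5 Mb limit were as follows. Just inside it, a WT H3K9me3 peak lay 4996 kb from the end on chromosome 12 (score 116, 742 bp), and just outside it one lay at 5004 kb on chromosome 4 (score 71.6, 410 bp). For KO H3K9me3 the neighbours of the limit lay at 4986 kb on chromosome 1 (score 56.3) and at 5027 kb on chromosome 10 (score 58.9). For H4K20me3 they lay at 4990 and 5018 kb in KO cells, both on chromosome 15, and at 4993 kb on chromosome 15 and 5004 kb on chromosome 3 in WT cells. For KAP1 they lay at 4880 kb on chromosome 6 and 5357 kb on chromosome 4.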

How the data were processed

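ChIP-seq peak lists of 5 mouse MEF libraries were used: H3K9me3 and H4K20me3 in KAP1 KO and WT cells and KAP1 in WT cells. Each deposited list gives chromosome, start, end, name and a score made by the authors; its lowest value is 50. The build was mm9 and the tools MACS 1.4, Bowtie2 2.2.1 and CASAVA 1.82, per the submitters' processing notes. Neither call settings nor the controls of the histone calls were stated there. The KAP1 list, per the file headers, sets 1 WT KAP1 library against 1 WT MEF library. Scores grow with depth and width, so they rank peaks within a list and are not compared between lists. The alternative with scores of at least 100 puts 1 limit on lists of unknown depth, and its KO to WT ratios may carry a difference in depth.

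Positions are printed counting from 1. Overlap meant at least 1 bp; Python 3.11.15 with pandas 2.3.3 and numpy 2.4.6 gave the calls of bedtools 2.31.1 in all 40 combinations compared, and counting was tested on simulated data. Distal windows summed to 95 Mb. The rest ran from the lowest peak start to 5 Mb before the largest peak end, 2319 Mb in all. Intervals came from scipy 1.17.1: Clopper-Pearson for shares, conditional binomial for ratios of numbers or densities, Fisher's conditional interval for quotients of ratios and order statistics for medians. Figures used matplotlib 3.10.9.

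Named regions are, per mark, up to 5 highest-scoring distal lost, kept and new peaks, of which the foremost are printed, the distal KAP1 peaks on a mark and the top 5 by score, the 3 ends with most peaks per list, the 3 fullest 1 Mb bins per mark and peaks nearest the 5 Mb limit. The last 100 kb, runs with gaps up to 20 kb, distances to H4K20me3 and the stretches of chromosomes 2, 6 and 10 were chosen after their values were seen. The members and all lists were chosen with earlier results of these data known. No annotation or sequence of build mm9 was used here.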

Additional observations from a re-analysis of the deposited data

Results flagged for a closer look

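At 4 chromosome ends with at least 10 distal peaks of each mark in a genotype, 1 mark had more peaks in KO cells and the other had fewer. The difference was not tested, since each group had 1 library. At the end of chromosome 2 the KO to WT ratio of distal peak numbers was 1.73 for H3K9me3. For H4K20me3 it was 0.957, from 44 KO and 46 WT peaks. At the end of chromosome 3 the ratios were 0.214 for H3K9me3 and 1.11 for H4K20me3, the second from 10 KO and 9 WT peaks. At the end of chromosome 7 the H3K9me3 ratio was 0, from 0 KO and 13 WT peaks, and the H4K20me3 ratio 1.36, from 30 KO and 22 WT peaks. At the end of chromosome 10 the ratios were 0.558 for H3K9me3 and 1.39 for H4K20me3.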

How the results depend on the processing

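No paired analysis was possible because each group has 1 library and no test was made. Of 209 values of 22 results under alternatives, 150 stayed within the interval of the value reported and 51 lay outside it. In 8 more the direction turned from a value whose interval lay wholly on 1 side of equality. In 10 of the first 2 kinds the sign turned from a value whose interval included equality. The cause was not tested. KO to WT ratio of distal H3K9me3 numbers: 0.182 with a window of 2 Mb, 0.114 with scores of at least 100 and 0.179 without chromosome 2. Relative to the ratio of the rest it was 0.903 with 2 Mb and 0.894 without chromosome 2, both turned, 1.15 with scores of at least 100 and 1.14 against the next 5 Mb. H4K20me3 number ratio: 0.925 with scores of at least 100. KO H3K9me3 peaks without a WT peak: 78.8% with 2 Mb, 73.3% with scores of at least 100, 94.5% with equal numbers of highest-scoring peaks and 76.6% without chromosome 2. Before overlaps were called, the score limit cut the lists of both genotypes, and equal numbers cut the longer list of each mark. Against the uncut WT list, 18 of the 30 distal KO H3K9me3 peaks with scores of at least 100 had no WT peak (60.0%). KO H4K20me3 peaks without a WT peak: 13.4% with peaks within 5 kb merged, 22.7% with an overlap of at least 50%, 14.7% within 1 kb and 24.5% with equal numbers. H4K20me3 peaks kept: 76.8% with scores of at least 100 (82.5% against the uncut KO list), 73.7% merged and 78.8% with equal numbers. Kept on H3K9me3: 19.4% merged. Kept off H3K9me3: 83.3% with scores of at least 100, 80.6% merged, 69.8% with 50% overlap and 78.9% within 1 kb. WT H3K9me3 peaks on H4K20me3: 6.28% with 50% overlap, 13.6% within 1 kb and 20.5% with equal numbers.

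Density relative to the rest, H3K9me3 in KO: 1.16 with 2 Mb, 2.56 with 10 Mb, 1.75 with scores of at least 100 and 1.19 without chromosome 2. Chromosome 2 held more of these distal peaks than any other chromosome, 95 of 219. Against the next 5 Mb the density ratio turned to 0.745, to 0.682 without chromosome 4, and was 1.11 without chromosome 10. H3K9me3 in WT: 1.81 with 10 Mb, 1.52 with scores of at least 100, 1.47 merged and 1.21 without chromosome 6, and against the next 5 Mb 0.652 and, without chromosome 10, 0.648, both turned, but 1.02 without chromosome 4. H4K20me3 in KO: 1.45 without chromosome 15, 1.46 without chromosome 10 and 1.17 against the next 5 Mb. H4K20me3 in WT: 1.13 against the next 5 Mb. Median length minus that of the rest, H3K9me3 in KO: -31.0 bp with 2 Mb, 61.0 bp with 10 Mb, -330.0 bp with scores of at least 100, 10.5 bp without chromosome 2 and -196.5 bp against the next 5 Mb, -191 bp there without chromosome 4. H3K9me3 in WT: 87.0 bp with 10 Mb, 5.00 bp without chromosome 6 and -81.0 bp, turned, against the next 5 Mb, -83.5 bp there without chromosome 10. H4K20me3: 19 bp in KO without chromosome 10 and -33.0 bp in WT against the next 5 Mb. Alternatives without the last 100 kb or without chromosome 2, 4 or 10, other than as the chromosome with most peaks, were added after the data had been seen. Depth was unknown, so a lost peak cannot be told apart from one below the calling threshold.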

Other observations

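Other runs of distal peaks stood out by their number, chosen after their values were seen. On chromosome 4, 7 KO H3K9me3 peaks lay from 154212872 to 154225573, with a highest score of 173 and no WT peak of either mark in the stretch. On chromosome 12, 9 WT H3K9me3 peaks lay from 120791359 to 120831118, and no H4K20me3 peak was called there. Of these 9, 2 were kept, beside 3.10% over the whole list. On chromosome 16, 7 WT H4K20me3 peaks lay from 98272303 to 98303712, at the end of the chromosome, 5 of them on WT H3K9me3, and 1 H4K20me3 peak was called there in KO cells. On chromosome 15, 7 WT H4K20me3 peaks from 102811973 to 102866059 lay on no H3K9me3 peak, and the stretch held 7 H4K20me3 peaks in KO cells too.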
